A study of Mus musculus with 5 samples.

Results

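Central carbon metabolism was compared between the common dendritic cell progenitor (CDP), the marrow precursor of dendritic cells, and the less restricted common myeloid progenitor (CMP), from which granulocytic, monocytic, erythroid and megakaryocytic cells also descend. The set comprised 41 genes of glycolysis, the pentose phosphate pathway and the TCA cycle. The rule took them by gene symbol, with no threshold on a measured value, and every probe set annotated with exactly that symbol was taken. Of the 41 genes, 38 had such a probe set, among 18194 genes with one on the array. Gpi1, Eno1 and G6pdx had none and were not analysed here. Gapdh was represented by 3 control probe sets of the manufacturer alone. Aldoc lay below the detection level of log2 5 on every array. The other 36 genes were tested, and all of them were detected on all 5 arrays.

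The mice were C57BL/6 animals with a wild-type genotype, and both populations came out of their bone marrow, with no treatment named, per their labels. The title of CDP 3 opens with CM and every other title with BM, and nothing explains the prefix. The labels give neither age nor pooling, nor whether the arrays of a group stand for different animals. The spread between arrays that underlies each p-value may therefore be technical. CDP (3 arrays) were sorted as lineage-negative cells with intermediate c-Kit, without Sca-1, CD16 and CD32, and with CD34, Flk2 and CD115. CMP (2 arrays) were lineage-negative with high c-Kit, without Sca-1, CD11c, CD16, CD32 and CD115, and with CD34 and Flk2. RNA of 10000 to 30000 double-sorted cells passed through 2 rounds of amplification before hybridisation. The series is titled after the role of IRF-8 in commitment to the dendritic cell lineage and against neutrophils, and the question put here is how the enzyme transcripts of these pathways differ between the committed and the earlier progenitor.

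Glycolysis splits glucose into pyruvate in the cytosol, and its flow is set mainly at hexokinase, phosphofructokinase and pyruvate kinase. Lactate dehydrogenase interconverts pyruvate and lactate, and pyruvate dehydrogenase commits pyruvate to acetyl-CoA, which the TCA cycle oxidises in mitochondria. The pentose phosphate pathway branches off at glucose 6-phosphate and yields NADPH and ribose for nucleotides. Many glycolytic genes are targets of the transcription factors HIF-1 and MYC. Transcript levels were measured here, not enzyme activity or flux.

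The CDP and CMP markers differed in the direction of the labels. Their lists were chosen with earlier results of these data known. Kit, Csf1r (CD115), Cd34 and Flt3 (Flk2) were also sort criteria, as was Itgax (CD11c) for CMP. The agreement of these lists with the labels is therefore not an independent check of identity. All 10 CDP markers were tested, and 8 passed the test as higher in CDP. All 9 CMP markers were tested, and 7 passed as lower in CDP. Neutrophil transcripts were confined to CDP 2, where 9 of 10 neutrophil markers were detected against 0 on each other array, with a summed level of log2 14.2 against 5.90 to 6.33. S100a8 reached 12.5 there, and Cxcr2 was below detection on all arrays. CDP 2 was also the array with the erythroid marker Alas2, at 8.80 on CDP 2 and at the lowest value of the table on each other array. Of the erythroid markers 4 of 8 were detected on any array (Klf1 and Epor on none), and their summed level was 6.27 to 10.7 in CDP and 8.18 to 9.73 in CMP. Of the B cell markers 3 of 6 were detected, and their summed level was 7.91 to 8.65 in CDP and 7.04 to 7.38 in CMP. Cd79b (7.12 to 8.13 against 5.96 and 6.96) and Vpreb1 (5.97 to 6.29 against 4.96 and 3.45) were the higher ones in CDP, while Cd79a, Ms4a1 and Pax5 were below detection on all arrays. Of the macrophage and monocyte markers 3 of 8 were detected, with a summed level of 6.999 to 8.24 in CDP and 6.36 to 7.59 in CMP. Adgre1 lay at 5.41 to 5.82 in CDP and below detection in CMP, and Mrc1, C1qa and C1qb were below detection throughout. None of these markers passed the test, but Cd79b, Vpreb1 and Adgre1 did with the kind of array, defined next, as a block. Their part in the results below was not tested. Of the stromal markers 1 of 6 was detected, and of the T and NK cell markers 0 of 6. The 5′ probe set of beta-actin lay at 6.54 on CDP 1 and 6.71 on CMP 1, below log2 8, against 10.5 to 13.0 on the other arrays, and its 3′ minus 5′ gap was 8.05 and 7.35 against 1.81 to 4.48. By this measure both groups hold an array low in 5′ signal. Differences are also given within each kind of array (CDP 1 minus CMP 1, and the mean of CDP 2 and CDP 3 minus CMP 2). The Gapdh control probe sets gave a mixed picture. The middle one split the arrays alike, at 7.78 and 8.27 on CDP 1 and CMP 1 against 11.8 to 13.2. The 5′ one lay lowest on CDP 3 (7.40, against 7.66 on CDP 1 and 7.57 on CMP 1). Its 3′ minus 5′ gap was also largest on CDP 3, at 6.60.

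Promoter windows were read for 40 of the 41 genes from RefSeq (GRCm38.p6, 250 bases before to 50 after an annotated start). Idh3a was not matched. The windows were searched on both strands for ACGTG and GCGTG, the cores of the HIF-1 element, of which ACGTG is also contained in the E-box CACGTG that MYC binds. CACGTG counts as a match on each strand. ACGTG occurred in a window of 18 of the 40 genes (45%), against 31.2% of 6977 tested genes with a window and 21.8% of all 27025 genes of the table. GCGTG occurred in 30 of 40 (75%), against 58.6% of tested genes and 35.2% of all genes, and genes with several annotated starts had more than 1 window. By pathway, ACGTG was in 7 of 11 genes from hexokinase to triose phosphate isomerase and in 4 of 6 from Gapdh to pyruvate kinase, but in 1 of 7 pentose phosphate genes (G6pdx) and 3 of 10 TCA genes (Ogdh, Sdha and Mdh1). GCGTG ran otherwise, in 6 of 11, 4 of 6, 6 of 7 and 8 of 10 genes in the same order. Either core was in 9 of 11, 6 of 6, 6 of 7 and 9 of 10, so the pathways differed little by both together. A match is a description of these letters, not a measured site. The windows below are shown because the results turn on these genes. The lactate dehydrogenase pair shows how far the letters of related genes differ, and Pfkl and Pgls had the largest difference in each direction among genes by their brightest probe set. Capitals mark ACGTG or GCGTG on either strand. The windows lie at chr6:142507908-142508207 on the minus strand (Ldhb), chr7:46845554-46845853 on the plus strand (Ldha, the first of its windows), chr10:78009758-78010057 on the minus strand (Pfkl) and chr8:71591934-71592233 on the plus strand (Pgls), each read 5′ to 3′ along its gene.
Ldhb: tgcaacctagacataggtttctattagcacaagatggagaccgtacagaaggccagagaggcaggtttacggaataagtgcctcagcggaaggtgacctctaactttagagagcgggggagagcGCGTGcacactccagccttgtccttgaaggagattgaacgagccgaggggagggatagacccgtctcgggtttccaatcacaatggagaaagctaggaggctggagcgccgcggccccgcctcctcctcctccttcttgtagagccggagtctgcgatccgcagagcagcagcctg
Ldha: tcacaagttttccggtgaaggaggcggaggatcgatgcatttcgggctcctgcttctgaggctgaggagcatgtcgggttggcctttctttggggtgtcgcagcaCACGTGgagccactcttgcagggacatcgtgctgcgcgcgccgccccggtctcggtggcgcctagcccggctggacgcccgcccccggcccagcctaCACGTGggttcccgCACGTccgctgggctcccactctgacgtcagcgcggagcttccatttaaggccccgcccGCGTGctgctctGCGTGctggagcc
Pfkl: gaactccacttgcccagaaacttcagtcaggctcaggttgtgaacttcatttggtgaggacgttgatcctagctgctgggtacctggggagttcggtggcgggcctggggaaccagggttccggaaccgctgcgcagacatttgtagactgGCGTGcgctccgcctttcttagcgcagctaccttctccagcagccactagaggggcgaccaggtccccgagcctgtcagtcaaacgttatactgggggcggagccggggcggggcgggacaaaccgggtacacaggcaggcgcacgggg
Pgls: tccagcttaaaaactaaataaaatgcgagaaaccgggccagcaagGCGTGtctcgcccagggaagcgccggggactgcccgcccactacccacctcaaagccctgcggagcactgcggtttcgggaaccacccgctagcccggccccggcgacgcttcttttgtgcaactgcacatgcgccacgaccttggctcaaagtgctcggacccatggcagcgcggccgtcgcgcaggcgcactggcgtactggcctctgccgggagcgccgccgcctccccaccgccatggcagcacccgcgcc
The window of Ldha held 5 matches of ACGTG, most of them as CACGTG, and 2 of GCGTG. Those of Ldhb, Pfkl and Pgls each held 0 of ACGTG and 1 of GCGTG.

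No member gene passed the test by its brightest tested probe set (limma, adjusted p under 0.05 over all 16552 tested probe sets), where 2.14% of the 8449 tested genes passed (1.67% as higher and 0.473% as lower). At an unadjusted p under 0.05, 7 members stood out by limma, 2 higher and 5 lower in CDP, where 17.1% of all tested genes did (12.6% higher and 4.52% lower). Among all 68 tested member probe sets 1 passed, of Ldhb, lower in CDP, where 1.73% of all tested probe sets passed (1.31% as higher and 0.423% as lower). Differences are CDP minus CMP on the log2 scale, with the standard error of the limma fit. They were below 0 for 21 of the 36 genes (39.4% of all tested genes), or 23 with median scaling, and all 3 CDP arrays lay below both CMP arrays for 8 genes (10.8% of all tested genes) and above both for 5 (23.7%). The median difference of the members was -0.09, against 0.17 over all tested genes and 0.12 over all tested probe sets. Quantile normalization moves the latter from 0.12 to 0.0026, and the differences here should be read against that shift. Of 20 members with several tested probe sets, 13 had differences of 1 sign, and 7 (Pdha1, Pgd, Rpe, Cs, Idh2, Ogdh and Mdh1) did not. In these sorted populations, a lower signal may come from fewer cells that carry a transcript or from less of it per cell, which cannot be told apart.

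**Figure D1:**
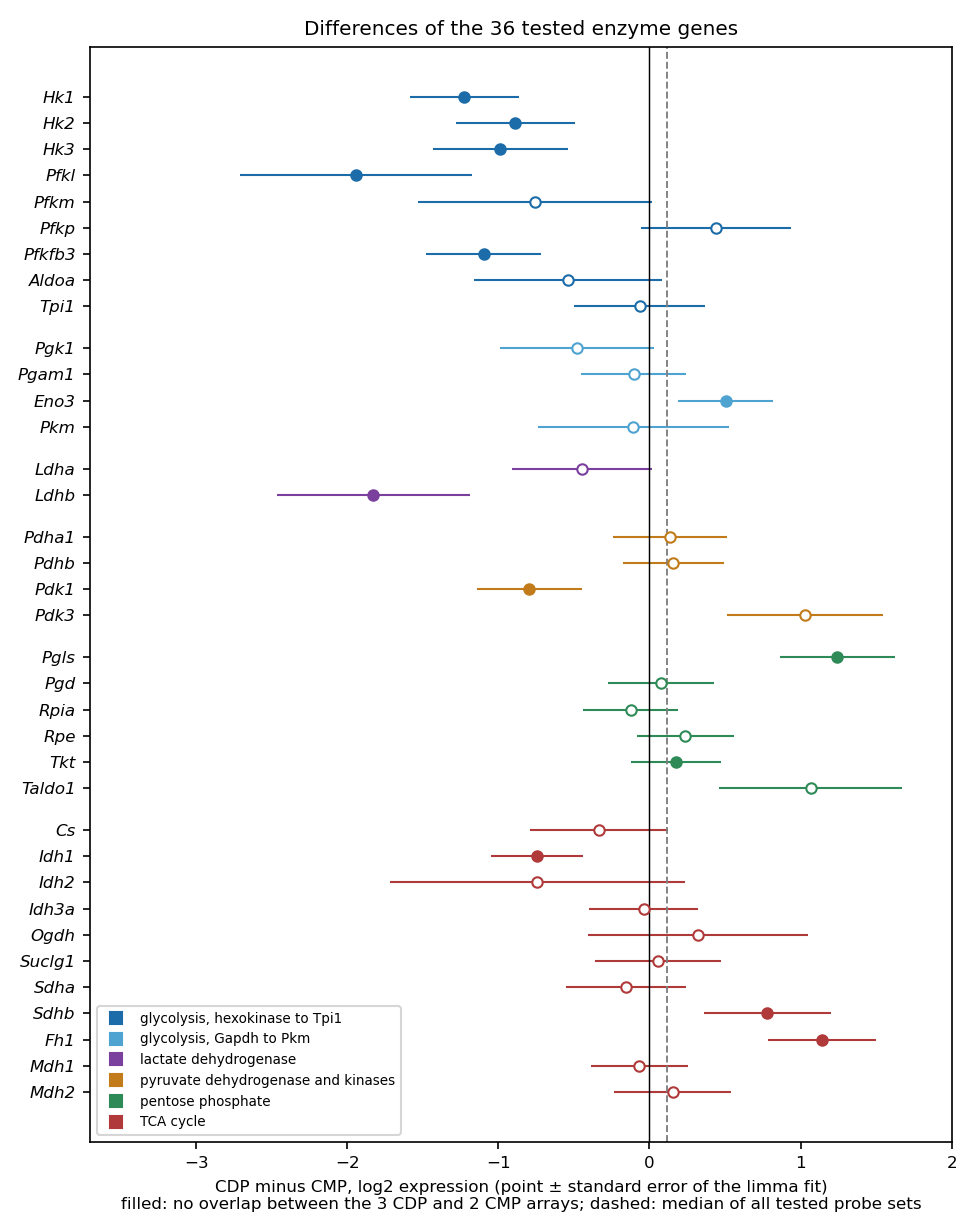
CDP minus CMP difference on the log2 scale (horizontal axis) of the 36 tested enzyme genes, ordered by pathway; points are differences, bars are ± the standard error of the limma fit, filled points mark genes whose 3 CDP and 2 CMP arrays do not overlap, and the dashed line is the median of all tested probe sets (0.12). From hexokinase to triose phosphate isomerase 8 of 9 points lie below 0, and among the pentose phosphate genes 5 of 6 lie above 0 (4 with median scaling).

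The preparatory steps of glycolysis, which phosphorylate glucose and split it into triose phosphates, had the lowest differences of the longer lists. Of 9 tested genes 8 were below 0 (39.4% of all tested genes were), with a median of -0.89 (-1.004 relative to the median of all tested probe sets). In 5 of the 9 (Hk1, Hk2, Hk3, Pfkl and Pfkfb3) every CDP array lay below both CMP arrays on the brightest probe set, and in none above. Over all tested genes these shares were 10.8% below and 23.7% above. None of the 9 passed the test. Hk1, the broadly expressed hexokinase that traps glucose in the cell, lay at 8.07, 7.50 and 7.74 on the CDP arrays and at 9.28 and 8.71 on the CMP arrays. The groups did not overlap, and the difference was -1.22 ± 0.36 (limma adjusted p = 0.181). Hk2, the inducible hexokinase, differed by -0.89 ± 0.39, and Hk3, a hexokinase abundant in myeloid cells, by -0.99 ± 0.45 on its brightest probe set, again without overlap. On the dimmer probe set of Hk3 the groups overlapped, at 8.65, 10.13 and 9.37 in CDP and 9.37 and 11.83 in CMP. The difference there was -1.22 ± 0.80 (limma adjusted p = 0.533).

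Pfkl, the liver-type subunit of phosphofructokinase, which catalyses the committed step, lay at 6.79, 7.71 and 7.83 in CDP and at 8.15 and 10.62 in CMP. The CDP arrays were the lower ones, but CMP 2 stood 2.47 above CMP 1, and the difference of -1.94 ± 0.77 had a limma adjusted p of 0.296. The other subunits went separate ways, with Pfkm (muscle type) at -0.76 ± 0.78 and Pfkp (platelet type) at 0.44 ± 0.50, and their groups overlapped. Pfkfb3, which makes the phosphofructokinase activator fructose 2,6-bisphosphate, lay at 8.57, 8.002 and 8.24 in CDP and at 8.996 and 9.74 in CMP. It was lower on every CDP array, by -1.10 ± 0.38 (limma adjusted p = 0.242). Aldoa, the aldolase, and Tpi1, triose phosphate isomerase, were at -0.54 and -0.06 with overlapping groups.

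The steps from Gapdh to pyruvate kinase, which recover ATP, had 3 of 4 tested genes below 0 and a median of -0.11 (-0.22 relative to all tested probe sets). Eno3, an enolase best known from muscle, was dim, at 6.03, 6.02 and 6.21 in CDP and 5.38 and 5.78 in CMP. Its CDP arrays were all above the CMP arrays, at a difference of 0.51 ± 0.32 (limma adjusted p = 0.506). Pgk1, phosphoglycerate kinase, lay at 12.95, 13.53 and 13.01 in CDP and at 12.91 and 14.38 in CMP. The CMP arrays enclosed all CDP arrays, and the difference was -0.48 ± 0.51 (limma adjusted p = 0.721). On its other probe sets every CDP array lay below both CMP arrays, at differences of -0.51 ± 0.29 and -0.64 ± 0.31 (limma adjusted p = 0.463 and 0.397). Pgam1, phosphoglycerate mutase, lay at 12.30, 12.51 and 12.70 against 12.31 and 12.91, a difference of -0.10 ± 0.35 (limma adjusted p = 0.923). Pkm, pyruvate kinase, had a difference of -0.11 ± 0.63. Gapdh, by its 3′ control probe set, lay at 12.30, 14.03 and 14.01 in CDP and at 12.28 and 14.19 in CMP. The low values were those of the arrays low in 5′ signal, and with the controls added to the fit its difference was 0.21 ± 0.77 (limma adjusted p = 0.932).

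Lactate dehydrogenase held the called probe set. Ldhb encodes the H subunit, which favours turning lactate into pyruvate, and Ldha the M subunit, which favours the reverse. On the called probe set of Ldhb the CDP arrays lay at 5.13, 4.88 and 5.03, at about the detection level, and the CMP arrays at 7.25 and 8.11. The difference was -2.67 ± 0.37 (limma adjusted p = 0.0362), and with values under log2 5 set to 5, Ldhb was at least 6.18-fold lower in CDP. That bound ran from 4.59-fold (without CMP 2) to 8.32-fold (without CMP 1) when each array was left out in turn. The call did not outlast the loss of any array, with limma adjusted p-values of 0.078 without CDP 1, 0.199 without CDP 2, 0.213 without CDP 3, 0.113 without CMP 1 and 0.145 without CMP 2, over differences from -2.24 to -3.096. At that size of design few calls are possible in any gene: without CDP 1, 44 of all tested probe sets passed, and without any other single array 0 did.

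The other probe sets of Ldhb ran the same way. The brightest read 5.15, 5.64 and 5.34 in CDP and 6.14 and 8.26 in CMP, a difference of -1.83 ± 0.64 (limma adjusted p = 0.246). A further one read 4.02, 4.37 and 4.35 against 5.86 and 7.61, with a difference of -2.49 ± 0.55 (limma adjusted p = 0.103). The last passed log2 5 on CMP 2 alone and was not tested. Both CMP arrays exceeded every CDP array on all 4 probe sets. They interrogate the same transcript on the same RNA and are not separate evidence. Ldha was bright in both populations, at 10.97, 11.25 and 10.94 in CDP and at 10.83 and 12.17 in CMP. Its CDP arrays lay between the CMP arrays, and the difference was -0.45 ± 0.46 (limma adjusted p = 0.71).

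**Figure D2:**
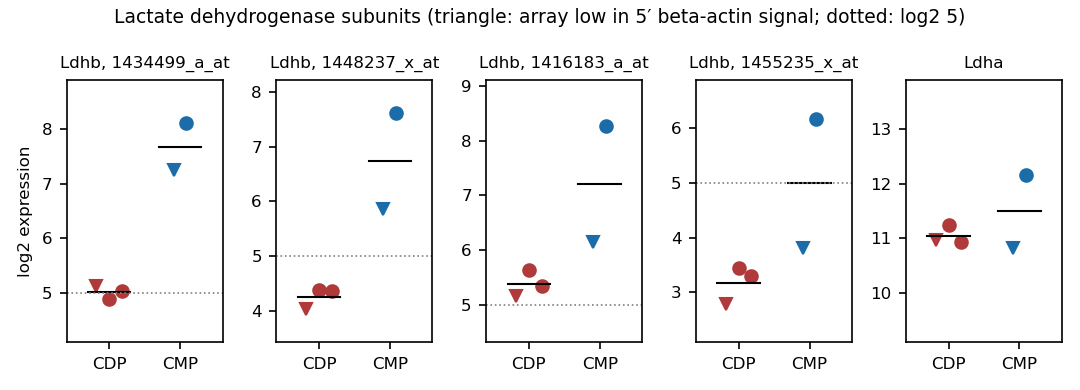
Level in log2 expression (vertical axis, own scale in each panel) of the 4 probe sets of Ldhb (the called one at the left) and of Ldha on each array of CDP (red) and CMP (blue); triangles are the arrays low in 5′ signal, bars are group means and the dotted line is the detection level of log2 5. All CDP points of Ldhb lie below the CMP points, whereas those of Ldha lie between them.

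Around pyruvate dehydrogenase 3 of 4 genes were above 0, with a median of 0.15 (0.03 relative to all tested probe sets). Pdk1, a kinase that phosphorylates and so inhibits the complex and is induced by HIF-1, lay at 10.82, 10.23 and 10.64 in CDP and at 11.55 and 11.16 in CMP. It was lower on every CDP array, by -0.80 ± 0.35 (limma adjusted p = 0.343), and its other tested probe sets had differences of -0.95 and -0.58. Pdk3, another of these kinases, lay at 7.74, 8.78 and 9.05 in CDP and at 7.06 and 7.92 in CMP. CDP 1 fell within the CMP range, and the difference was 1.03 ± 0.52 (limma adjusted p = 0.403). Pdhb, the E1 beta subunit, lay at 11.49, 11.57 and 11.48 against 11.05 and 11.67, a difference of 0.16 ± 0.33 (limma adjusted p = 0.876). The CDP values sat inside the CMP range, as did those of Pdha1, the E1 alpha subunit, at a difference of 0.14 ± 0.38.

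In the pentose phosphate pathway 5 of 6 tested genes were above 0 (4 with median scaling, where Pgd turned), with a median of 0.21 (0.09 relative to all tested probe sets), close to the 0.17 of all tested genes. Pgls, the lactonase of the oxidative branch, lay at 9.42, 9.95 and 10.36 in CDP and at 8.68 and 8.66 in CMP. No array overlapped, and the difference of 1.24 ± 0.38 was the highest of the 36 genes (limma adjusted p = 0.197). Taldo1, the transaldolase of the non-oxidative branch, lay at 11.63, 13.00 and 12.94 in CDP and at 10.80 and 12.11 in CMP. The arrays low in 5′ signal were the low ones in each group, CDP 1 fell below CMP 2, and the difference was 1.07 ± 0.61 (limma adjusted p = 0.46). Rpe, the ribulose phosphate epimerase, lay at 9.57, 9.25 and 9.24 against 9.28 and 8.95, a difference of 0.24 ± 0.32 (limma adjusted p = 0.791). Tkt, the transketolase, was among the brightest signals, with 15.13 to 15.41 over all arrays. Its CDP arrays were all above its CMP arrays, by only 0.18 ± 0.30. Pgd, the NADPH-yielding dehydrogenase, and Rpia, the ribose phosphate isomerase, were at 0.08 and -0.13.

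The genes listed under the TCA cycle, not all of them mitochondrial, had differences on both sides. There were 5 above and 6 below 0 (4 and 7 with median scaling, where Suclg1 turned). The median was -0.04 (-0.16 relative to all tested probe sets). Fh1, fumarate hydratase, lay at 12.07, 12.58 and 12.71 in CDP and at 11.10 and 11.53 in CMP. It was higher on every CDP array, by 1.14 ± 0.36 (limma adjusted p = 0.207). Sdhb, the iron-sulfur subunit of succinate dehydrogenase, which acts just before fumarate hydratase, lay at 10.26, 10.98 and 11.40 against 10.08 and 10.11. Its groups also did not overlap, though CDP 1 was near the CMP level, and the difference was 0.78 ± 0.42 (limma adjusted p = 0.436). Sdha, the flavoprotein subunit of the same complex, was at -0.16 ± 0.39 with overlapping groups. Idh1, the cytosolic NADP-dependent isocitrate dehydrogenase, lay at 10.99, 10.72 and 10.73 in CDP and at 11.58 and 11.54 in CMP. On this probe set, its brightest, it was lower on every CDP array, by -0.74 ± 0.30 (limma adjusted p = 0.307). On its other tested probe set the groups overlapped, with a difference of -0.94 ± 0.57 (limma adjusted p = 0.49). There CDP 1 lay 0.31 above CMP 1. Idh2, the mitochondrial counterpart of Idh1, was also at -0.74 on its brightest probe set. It had the widest spread, with CMP arrays at 9.16 and 12.21 and a standard error of 0.98. The other 6 genes (Cs, Idh3a, Ogdh, Suclg1, Mdh1 and Mdh2) had differences from -0.34 to 0.32 and overlapping groups.

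**Figure D3:**
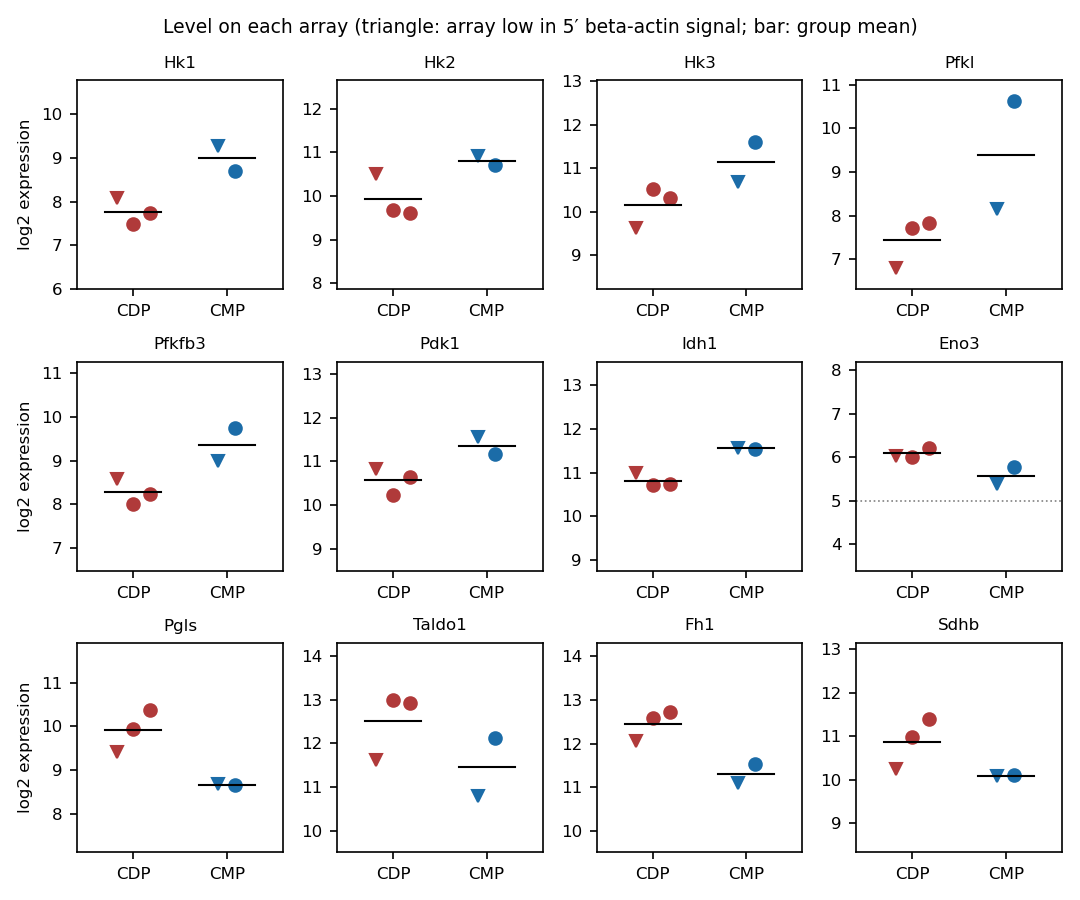
Level in log2 expression (vertical axis, own scale in each panel) of 12 enzyme genes on each array of CDP (red) and CMP (blue); triangles are the arrays low in 5′ signal, bars are group means and the dotted line in the panel of Eno3 is log2 5. CDP points lie below both CMP points for the hexokinases, Pfkl, Pfkfb3, Pdk1 and Idh1, and above both for Eno3, Pgls, Fh1 and Sdhb; those of Taldo1 overlap.

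The CMP arrays differed from each other by a larger median for these enzymes than for all tested genes. CMP 2 minus CMP 1 had a median of 0.60 over the 36 members against 0.08 over all tested genes, and over the 15 tested genes of glycolysis and lactate dehydrogenase it was 1.30, with 13 of them higher on CMP 2 (86.7% against 53.6% of all tested genes). For the pentose phosphate genes it was -0.14. In 24 of the 36 members (66.7%, against 58.7% of all tested genes) the gap between the CMP arrays exceeded the difference between the populations. These arrays also differ in 5′ signal, and the part of that in the gap was not tested. Without CMP 2, 13 members were below 0 and 23 above, with a median of 0.21, the preparatory steps had 5 of 9 below 0 at a median of -0.53, and the steps from Gapdh to pyruvate kinase turned to a median of 0.48. Without CMP 1 all 9 preparatory genes were below 0, at a median of -1.22. Without CDP 2, the array with neutrophil transcripts, 8 of those 9 stayed below 0 at a median of -0.96, and the pentose phosphate median was 0.28.

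Within each kind of array the preparatory steps of glycolysis kept their direction. Their median was -0.43 for CDP 1 minus CMP 1 and -1.09 for the remaining arrays, 8 of 9 genes were below 0 in both, and Pfkp was above 0 in both (25% of all tested genes were below 0 in both and 42.8% above). Where the groups do not overlap, as for Hk1, Hk2, Hk3, Pfkl and Pfkfb3, both signs are fixed by that. The same holds for Ldhb, Pgls, Fh1 and the dimmer probe sets of Pgk1. For these genes only the sizes are added here. The hexokinases were at -1.21 and -1.09 (Hk1), -0.42 and -1.07 (Hk2), and -1.05 and -1.18 (Hk3). Pfkl was at -1.36 and -2.85, and Ldhb at -0.99 and -2.78. The steps from Gapdh to pyruvate kinase disagreed, with medians of 0.30 and -0.61, and Ldha was at 0.14 and -1.08. Pgk1 was at 0.04 and -1.11 on its brightest probe set, but below 0 in both on the others (-0.45 and -0.57, and -0.35 and -0.83). The pentose phosphate medians were 0.25 and 0.24, and 5 of 6 genes were above 0 in both. Pgls was at 0.74 and 1.501, and Fh1 at 0.97 and 1.12.

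With the kind of array as a block in the limma fit, 4 member genes passed, all lower in CDP, where 2.66% of all tested genes passed as lower and 7.1% as higher. They were Pfkl at -2.21 (adjusted p = 0.0234), Ldhb at -2.01 (adjusted p = 0.0428), Hk1 at -1.14 (adjusted p = 0.0485) and Hk3 at -1.13 (adjusted p = 0.0487). The dimmer probe set of Hk3 did not pass (-1.50, limma adjusted p = 0.079). In all 7 member probe sets passed, all lower (2.5% of all tested probe sets did). Under the block the called probe set of Ldhb had a limma adjusted p of 0.00871, and Pfkl had a second called probe set (-2.69, adjusted p = 0.00696). The highest members remained short of the threshold by limma, with adjusted p-values of 0.0561 for Fh1 and 0.0693 for Pgls.

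**Figure D4:**
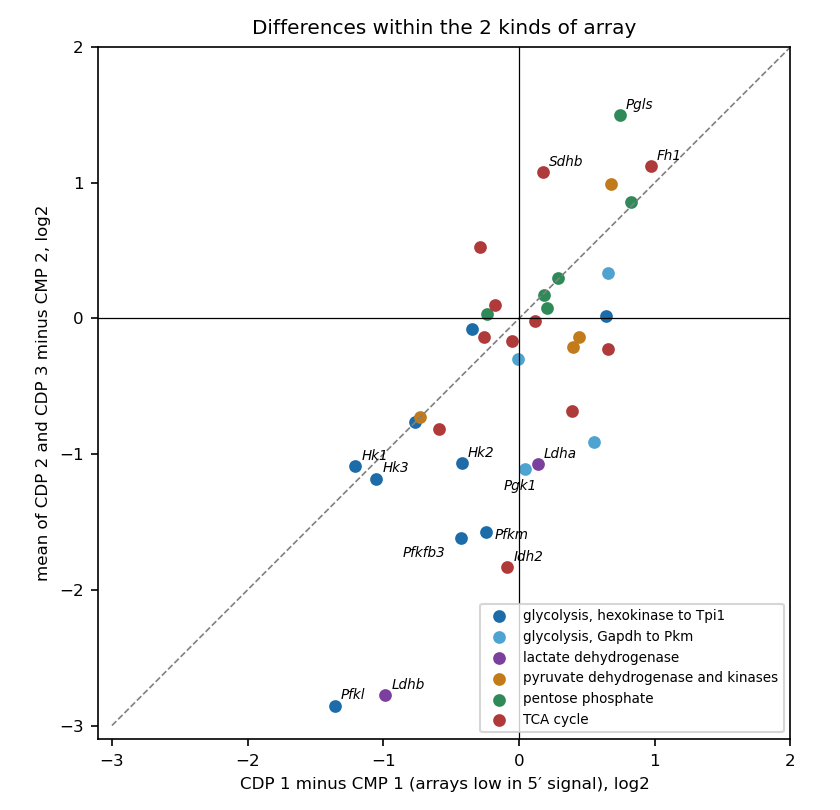
Difference between CDP and CMP on the log2 scale within the arrays low in 5′ signal (CDP 1 minus CMP 1, horizontal axis) and within the others (mean of CDP 2 and CDP 3 minus CMP 2, vertical axis) for the 36 tested genes by their brightest probe set, coloured by pathway; the dashed line marks equal differences. Hk1, Hk3, Pfkl and Ldhb lie below 0 on both axes, Pgls and Fh1 above 0 on both, and Ldha and Pgk1 below 0 on the vertical axis alone.

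Further enzymes of the same pathways gave 0 calls among 30 tested genes by limma (2 with an unadjusted p under 0.05, both lower), with 19 above and 11 below 0 and a median of 0.22. The smallest p belonged to Fbp1, the fructose bisphosphatase that opposes phosphofructokinase in gluconeogenesis. It lay at 6.99, 6.46 and 6.84 in CDP and at 8.89 and 8.21 in CMP, and no array overlapped. The difference was -1.79 ± 0.37 (limma adjusted p = 0.0859, and 0.0189 with the kind of array as a block). H6pd, the glucose 6-phosphate dehydrogenase of the endoplasmic reticulum, lay at 6.77, 6.97 and 7.31 against 8.03 and 7.79, and differed by -0.89 ± 0.33 (limma adjusted p = 0.268).

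Of the carriers of sugar, lactate and pyruvate, 15 were tested and 0 passed by limma (4 had an unadjusted p under 0.05, 3 higher and 1 lower), with a median of 0.13. Slc2a6, a glucose transporter family member found on lysosomes, lay at 6.88, 7.35 and 7.77 in CDP and at 4.59 and 5.46 in CMP. It was higher on every CDP array, by 2.30 ± 0.44 (limma adjusted p = 0.0698, and 0.0102 with the block). Mpc1, a subunit of the mitochondrial pyruvate carrier, lay at 8.94, 8.65 and 8.79 against 7.87 and 7.98, also without overlap, and differed by 0.87 ± 0.30 (limma adjusted p = 0.244). Slc2a1, the main glucose importer GLUT1, is named here after its values were seen. It lay at 8.56, 8.09 and 8.95 in CDP and at 9.34 and 9.62 in CMP, lower on every CDP array, with a difference of -0.95 ± 0.38 (limma adjusted p = 0.299).

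Among 28 tested regulators of carbon metabolism 2 passed the test, both higher in CDP, and the median was 0.08. Of all tested genes 1.67% passed as higher and 0.473% as lower. Vhl, the ubiquitin ligase subunit that marks hydroxylated HIF alpha subunits for destruction, lay at 8.86, 8.73 and 8.71 in CDP and at 6.65 and 6.62 in CMP. The groups lay far apart, and the level in CDP was 4.39-fold higher, a difference of 2.13 ± 0.30 (limma adjusted p = 0.0354). Mycl, a MYC family member known from dendritic cells and also in the list of CDP markers, lay at 8.26, 8.01 and 7.84 in CDP and below detection on both CMP arrays. It was at least 8.21-fold higher in CDP (difference 4.82 ± 0.45, limma adjusted p = 0.0155). As for Ldhb, neither call held when any of the 5 arrays was left out, with limma adjusted p-values of 0.0746 to 0.209 for Vhl and 0.0551 to 0.114 for Mycl. With the kind of array as a block 4 regulators passed, 2 higher and 2 lower. Of all tested genes 7.1% passed as higher and 2.66% as lower under that block.

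Several other regulators were examined after their values were seen. Myc, a driver of glycolytic genes, lay at 8.10, 7.94 and 8.69 in CDP and at 9.93 and 10.21 in CMP, with no overlap. Its difference was -1.82 ± 0.37 (limma adjusted p = 0.081, and 0.0224 with the block). Egln3, a HIF prolyl hydroxylase that is itself induced by HIF, lay at 7.30, 6.91 and 7.62 against 9.12 and 8.92 on its brightest probe set, a difference of -1.74 ± 0.35 (limma adjusted p = 0.081, and 0.0259 with the block). A dimmer probe set of Egln3, below detection on every CDP array, passed at -2.31 ± 0.38 (limma adjusted p = 0.0498), and there Egln3 was at least 1.78-fold lower in CDP. This call was lost without CDP 1, CDP 2 or CDP 3 (limma adjusted p = 0.0841 to 0.244), and without CMP 1 or CMP 2 the probe set failed the filter. Hif1a itself was near equal on its brightest probe set, at 10.67, 10.42 and 10.40 in CDP and 10.42 and 10.43 in CMP, a difference of 0.07 ± 0.30 (limma adjusted p = 0.94).

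**Figure D5:**
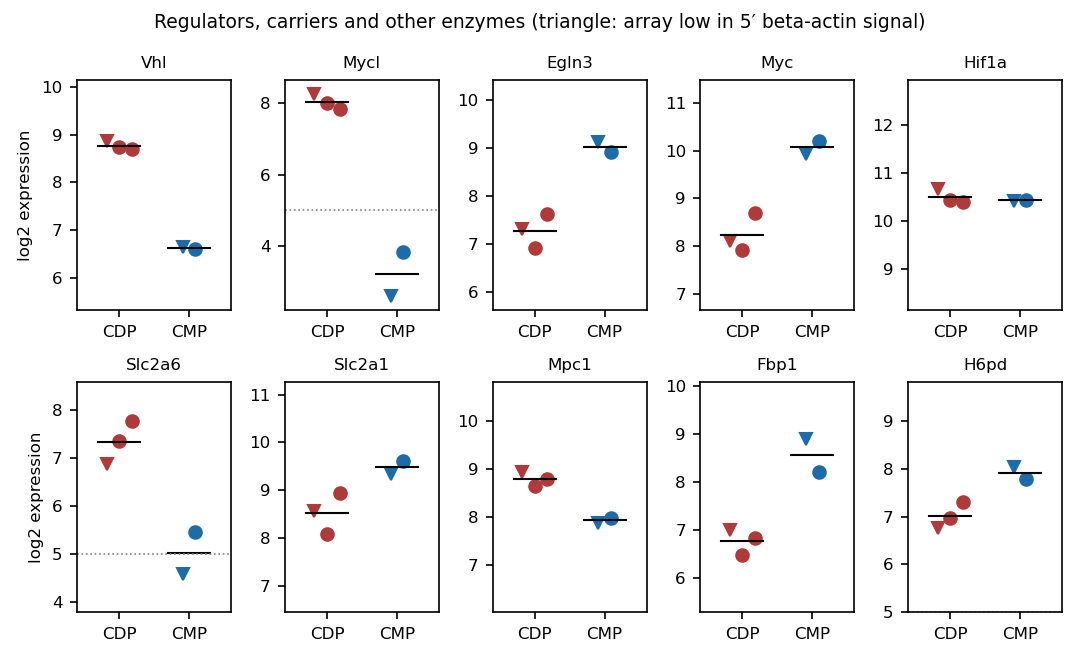
Level in log2 expression (vertical axis, own scale in each panel) of 5 regulators, 3 carriers and 2 further enzymes on each array of CDP (red) and CMP (blue); triangles are the arrays low in 5′ signal, bars are group means and dotted lines mark log2 5. Vhl, Mycl, Slc2a6 and Mpc1 lie higher on every CDP array, Egln3, Myc, Slc2a1, Fbp1 and H6pd lower, and those of Hif1a overlap.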

How the data were processed

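CDP (3 arrays) and CMP (2 arrays) were profiled on the Affymetrix mouse whole-genome platform. The deposited values are log2 expression made by the authors with GCRMA, per the submitters' processing notes (version not given in the sources used here). They start at 2.256, and 33.97% to 35.83% of probe sets per array reached log2 5, the detection level. Array number limits the precision.

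Gene names came from the platform annotation, only where a probe set had 1 symbol. All probe sets other than controls that reached log2 5 on at least 2 arrays were tested (16552), with or without such a name. The 2-sided test was the moderated one of limma 3.58.1 in R 4.3.3 (lmFit, then eBayes; residual degrees of freedom 3, prior 3.14), and the Benjamini-Hochberg adjustment ran over all of them. The brightest tested probe set by mean stood for a gene. Where an array of the dimmer group lay below log2 5, the fold is a lower bound with such values set to 5. The fit was tested on simulated data.

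Every member is accounted for. All array values are given for called members and for the 3 of each pathway with the smallest p, and of other lists for the called genes or the 2 with the smallest p. Members, lists and tests were chosen with earlier results of these data known. Promoter windows came from RefSeq (GRCm38.p6). Alternatives were other scalings, filters, variance models, array weights, blocks, probe set choices and each array left out. The Gapdh controls in the fit were added after seeing the data.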

Additional observations from a re-analysis of the deposited data

How the results depend on the processing

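The calls of Ldhb, Vhl, Mycl, Tyms and a dimmer probe set of Egln3, made without a block, did not hold when any array was left out. Without a CMP array that probe set of Egln3 was not tested. The fit with the kind of array as a block was not repeated with an array left out. The count of 0 member genes held under every setting except the kind of array as a block, where 4 passed. The count of called member probe sets, 1 of 68, went to 7 with that block, to 3 with the replicate block (Ldhb and Pfkl), and to 0 without a filter, without both arrays low in 5′ signal, without probe sets that may match several transcripts, and without each array. All called probe sets numbered 287, against 1438 with the kind of array as a block, 608 with the replicate block, 55 without a filter, 0 without both arrays low in 5′ signal, and 0 to 44 without each array. The replicate numbers did not pair the samples by any label. Deviations of same-numbered arrays correlated at 0.606 and 0.579 over only 2 pairs, so the replicate block is given here alone. Ldhb's called probe set is among those removed as able to match several transcripts, and the mean over probe sets gives it no value. It kept its direction under every other setting, with a difference of -2.67 but no call without a filter, and of -3.15 and no call without both arrays low in 5′ signal.

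Without those arrays, the medians of lactate dehydrogenase and of pyruvate dehydrogenase and its kinases were -1.93 and -0.17. Over each array left out, they ran from -2.003 to -0.27 and from -0.22 to 0.52, and that of the steps from Gapdh to pyruvate kinase ran from -0.73 to 0.48.

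Of 454 values of single members under the other settings, 429 kept their direction and side of the threshold, 4 newly passed and 21 turned. The filters and the variance models leave the difference itself unchanged, so no value could turn under them. With median scaling Pgd was at -0.0509 and Suclg1 at -0.0736. With array weights Tpi1 was at 0.16, Pkm at 0.0015, Pgd at -0.0183, Idh3a at 0.0663 and Suclg1 at -0.18. With the replicate block Mdh2 was at -0.0645. Without both arrays low in 5′ signal Pdha1 was at -0.21, Pdhb at -0.14, Rpia at 0.0290, Ogdh at -0.0200, Suclg1 at -0.22 and Mdh1 at 0.10. Without probe sets that may match several transcripts Cs was at 0.0352, Idh2 at 0.39 and Mdh1 at 0.66, and with all probe sets of a gene averaged Pdha1 was at -0.0580, Rpe at -0.00999, Cs at 0.20 and Mdh1 at 0.28. The cause was not tested.

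When each array was left out, 26 of 180 values turned, and 21 of the 36 genes turned under some setting. The ranges over arrays were -0.38 to 0.25 for Tpi1, -1.06 to 0.85 for Pkm, -0.0539 to 0.27 for Pgd, -0.31 to 0.23 for Idh3a, -0.27 to 0.27 for Suclg1, -0.15 to 0.45 for Mdh2, -0.21 to 1.09 for Pfkp, -0.30 to 0.57 for Pdha1, -0.15 to 0.46 for Pdhb, -0.32 to 0.0704 for Rpia, -0.81 to 0.14 for Cs, -0.56 to 1.20 for Ogdh, -0.29 to 0.16 for Mdh1, -1.88 to 0.37 for Pfkm, -1.22 to 0.14 for Aldoa, -1.22 to 0.26 for Pgk1, -0.40 to 0.19 for Pgam1, -1.12 to 0.22 for Ldha, -2.27 to 0.78 for Idh2 and -0.66 to 0.35 for Sdha. The 15 genes that turned under no setting in which they had a value were Hk1, Hk2, Hk3, Pfkl, Pfkfb3, Eno3, Ldhb, Pdk1, Pdk3, Pgls, Tkt, Taldo1, Idh1, Sdhb and Fh1. Of these, Hk1, Pfkl, Ldhb, Taldo1, Idh1 and Fh1 had no value without probe sets that may match several transcripts, and Eno3 and Ldhb had none with the filter at log2 7. Of the 15, all but Pdk3 and Taldo1 had groups without overlap on their brightest probe set. Leaving out arrays, or the kind of array as a block, could not turn the sign of those genes.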

Other observations

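Beside the enzymes, other hypoxia-inducible genes showed no shared direction. Of 11 tested, 0 passed by limma (4 had an unadjusted p under 0.05, 2 in each direction), 6 were below 0 and the median was -0.19. Bhlhe40, a transcriptional repressor, lay at 6.86, 6.52 and 6.19 in CDP and at 5.25 and 5.24 in CMP, a difference of 1.28 ± 0.34 (limma adjusted p = 0.153, and 0.0404 with the kind of array as a block). Ndrg1, a stress-responsive gene, lay at 10.00, 10.31 and 10.19 on its brightest probe set in CDP and at 11.01 and 11.13 in CMP, and differed the other way, by -0.90 ± 0.31 (limma adjusted p = 0.231). With that block 3 of the 11 passed by limma, Bhlhe40 as higher and the others as lower, where 7.1% of all tested genes passed as higher and 2.66% as lower. The lower ones, named after their values were seen, were Mif, a secreted cytokine, at -1.500 (adjusted p = 0.0234) and Ddit4, an inhibitor of mTORC1, at -1.33 (adjusted p = 0.0375).

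Cell division genes lay mostly higher in CDP. Of 19 tested, 17 were above 0 and 2 below (39.4% of all tested genes were below 0). In 10 every CDP array lay above both CMP arrays (23.7% of all tested genes). The median was 0.79, against 0.17 over all tested genes. Tyms, which makes thymidylate for DNA synthesis, passed the test as higher, at 7.93, 7.69 and 7.58 in CDP against 5.202 and 5.86 in CMP. It was 4.61-fold higher (difference 2.205 ± 0.35, limma adjusted p = 0.0456), while another probe set of Tyms was at 0.34 (limma adjusted p = 0.723). Its call was lost when any of the 5 arrays was left out (limma adjusted p = 0.0959 to 0.242). With the kind of array as a block 3 of the 19 genes passed by limma on their brightest probe set, all higher. Of all tested genes 7.1% passed as higher under that block. The 3 genes were Tyms, Ccnb2, a mitotic cyclin, at 2.03 (adjusted p = 0.0119), and Aurkb, a mitotic kinase, at 1.44 (adjusted p = 0.0351). Dimmer probe sets of Ccna2 (adjusted p = 0.032) and Rrm2 (adjusted p = 0.0356) passed as well.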
